A study of Rattus norvegicus with 15 samples.

Results

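RNA that came down with hnRNP A2 from rat oligodendrocytes was compared between 3 libraries from cells given oligomeric amyloid-β and 3 from control cells, 6 of the 15 libraries in the series. They were chosen by title and treatment label, and a treated and a control library of the same number (2, 3 or 4) form a pair. The cells were primary oligodendrocyte precursors shaken off mixed glial cultures of newborn Sprague–Dawley rat cortex, aged 0 to 2 days, and kept for 3 days in maturation medium. Treated cultures received Aβ1–42 that had been allowed to form oligomers, and the labels give neither its final dose nor the length of exposure. All groups share the same strain, cells and medium, and the series calls the replicates biological without saying which animals went into each culture. P-values therefore measure only the spread between these libraries. Where a fit holds a term for the pair, they measure the spread of the treatment difference over these pairs. The other libraries are 3 control inputs and 3 amyloid-β inputs, which hold total cell RNA, and 3 IgG immunoprecipitations labelled as a pool of both treatments, although the deposited files are named for amyloid-β alone, so which cells they hold is uncertain. The cultures start from mixed glia, so other glia could remain, and the labelled cell type was not checked against marker genes because the identifiers carry no gene names here.

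hnRNP A2 is an RNA-binding protein that binds short sequence elements in messenger RNAs, assembles with them into granules, and travels along microtubules into the processes of oligodendrocytes. The messenger RNA of myelin basic protein is its best known passenger in these cells and is translated close to the forming myelin sheath. Amyloid-β is the peptide that aggregates in Alzheimer's disease. The comparison asks whether its oligomers alter which RNAs are recovered with hnRNP A2. A gene's level is its share of a library, in CPM (counts scaled to a common library size), so fewer cells and less RNA per cell cannot be told apart, and neither can changes in the total RNA recovered. The count files give rat Ensembl identifiers without symbols, and 0 of the 30560 identifiers could be matched to the RefSeq gene table for GRCr8, so myelin genes and other named groups were not analysed here and no sequence could be assigned to a gene.

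The 6 libraries held 28056346 to 33168494 gene counts each, and 18033 to 19031 genes had at least 1 count. A gene at 0 counts in one of them could lie anywhere below 0.0904 to 0.107 CPM, a limit that covers counting error only. Treated and control libraries of the same number were the most alike. Across genes with at least 20 counts in a pair of libraries, the Pearson correlation of log2 CPM was 0.995 for pair 2, 0.996 for pair 3 and 0.995 for pair 4. Control libraries of different numbers correlated at 0.967 to 0.990, and treated ones at 0.969 to 0.991. The counts of same-numbered libraries still differed by more than sampling noise, with a chi-square per degree of freedom of 17.2, 10.4 and 16.2 for pairs 2, 3 and 4. It was 115.5, 170.6 and 48.2 among control libraries, so a treated library lay closer to its own control than the controls lay to each other.

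Replicate number accounted for most of the spread among these libraries, and treatment for little of it. Among the 9134 tested genes with a mean of at least 10 CPM, the number took 90.95% of the sum of squares of log2 CPM, treatment 3.31% and the remainder 5.74%. In the input libraries, over 8323 genes, the shares were 65.6%, 16.5% and 17.9%. Per degree of freedom, the mean square for number was 13.8 times that for treatment in the immunoprecipitation and 1.99 times in input. The mean square for treatment was 1.15 times the remainder in the immunoprecipitation and 1.85 times in input. These shares are descriptions over genes that are not independent, and the difference between the 2 kinds of library was not tested.

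**Figure D1:**
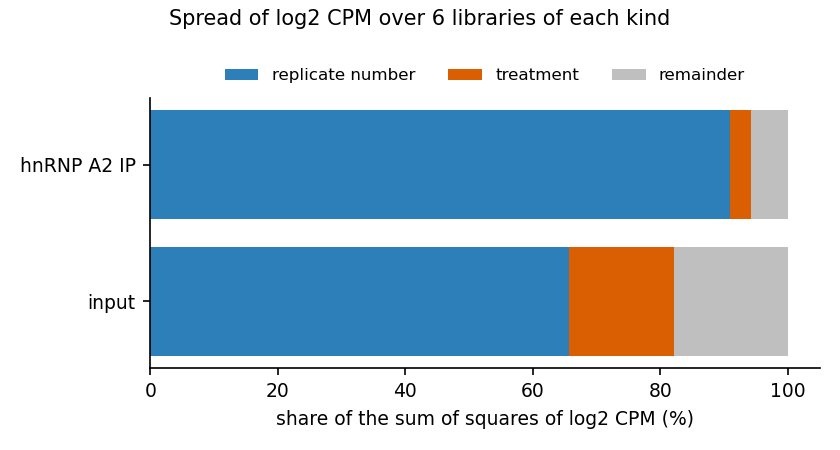
Share of the sum of squares of log2 CPM (horizontal axis, percent) that goes with replicate number, with treatment and with neither, for 6 hnRNP A2 libraries and 6 input libraries, over genes with a mean of at least 10 CPM. Number takes 90.95% in the immunoprecipitation and 65.6% in input, and treatment takes 3.31% and 16.5%.

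Of 15118 genes tested, edgeR called 0 between amyloid-β and control at an adjusted p of 0.05 (0% of genes called). At an unadjusted p of 0.05 it counted 42 genes (0.278%). DESeq2 and voom also called 0, with 35 and 133 genes at that unadjusted level. If no gene differed, a share of about 0.05 would be expected at that level. The fits without the block leave the spread between pairs in their error and lie far below that share. Their 0 calls therefore do not show that nothing changed. Because the numbers pair the libraries, edgeR was also fitted with a block for the pair. That fit called 1 gene (0.00661%) and put 888 at an unadjusted p of 0.05 (5.87%), 468 of them higher (3.1%) and 420 lower (2.78%) with amyloid-β. The 5.87% lies close to the expected share. At that unadjusted level DESeq2 with the block put 488 genes and voom with the block 1035, so the tools differed. With the block, DESeq2 called 18 genes (0.119%) and voom 14 (0.0926%). The 2 lists shared 12 genes, which is 66.7% of the DESeq2 list and 85.7% of the voom list, and both held the gene that edgeR called.

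The count with the block moved with single pairs. edgeR with the block called 17 genes without pair 2, 7 without pair 3 and 37 without pair 4, although each of these fits rests on only 4 libraries. Without pair 2 there were 10 higher and 7 lower, without pair 3 all 7 were higher, and without pair 4 there were 36 higher and 1 lower. With library sizes alone as the scaling, the blocked count was 7, all higher.

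The groups did not overlap at 207 genes that were higher in each treated library than in each control library (1.37% of genes tested) and at 251 genes that were lower (1.66%), 458 in all (3.03%). In input the same count was 836 of 13793 genes (6.06%). With interchangeable libraries and no difference, a share of about 0.1 would be expected, and no such reference was computed for paired libraries. Within pairs, 1987 genes (13.1%) were higher in treated cells in all 3, and 2158 (14.3%) were lower in all 3. If no gene differed, a share of about 0.25 would have 1 sign in all 3 pairs, in either direction. The counts lie close to that share, so nothing is read from them. Most differences within pairs were small. Among the 9134 genes of at least 10 CPM, 0 differed by 1.5-fold or more in 1 direction in all 3 pairs, and likewise 0 of the 8323 such genes in input.

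The fold changes were narrowest for well covered genes. Between 10 and 100 CPM, 6850 genes had a 5th to 95th percentile of log2 fold change from -0.17 to 0.18, and between 100 and 1000 CPM, 2199 genes ran from -0.16 to 0.15. Below 1 CPM, 1791 genes ran from -0.82 to 0.79. Of the 87 tested genes with a fold change of at least 2 in either direction, 81 had a mean below 1 CPM, 6 lay between 1 and 10 CPM and 0 were above that. The 85 genes above 1000 CPM had a median of -0.053 and ran from -0.19 to 0.27.

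**Figure D2:**
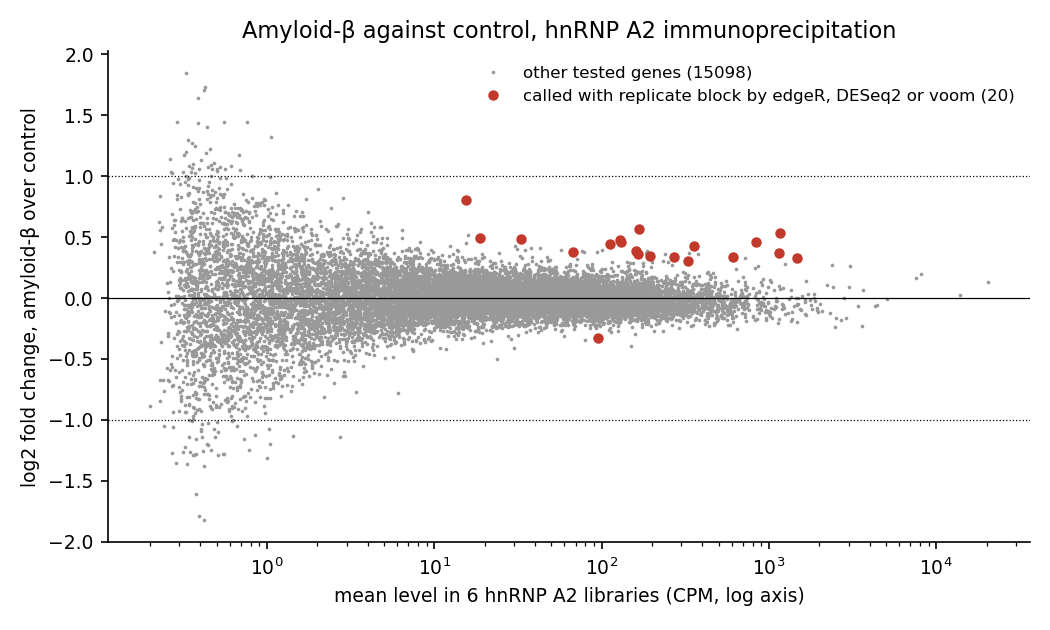
Log2 fold change of amyloid-β over control (vertical axis, edgeR without the block) against mean level in the 6 hnRNP A2 libraries (horizontal axis, CPM, log scale), with 1 point for each of 15118 genes and dotted lines at 2-fold. Points past 2-fold have low levels, and the 20 genes called with the replicate block by edgeR, DESeq2 or voom (red) lie between 15.4 and 1478 CPM, 19 of them above 0.

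How tightly these libraries bound a change depends on level and on the block. The 95% confidence interval of the fold change lay within 1.5-fold either way for 6617 genes (43.8%) without the block and for 11252 (74.4%) with it. It lay within 2-fold for 10945 genes (72.4%) and 13100 genes (86.7%). With the block, 6829 of the 6850 genes between 10 and 100 CPM (99.7%) and 2192 of the 2199 genes between 100 and 1000 CPM (99.7%) were bounded within 1.5-fold, against 2147 of 4193 between 1 and 10 CPM (51.2%) and 0 below 1 CPM. The median half-width of the interval with the block was a factor of 2.04 below 1 CPM, 1.34 between 1 and 10 CPM, 1.14 between 10 and 100 CPM and 1.11 between 100 and 1000 CPM. Below 1 CPM only 168 of 1791 genes (9.38%) were bounded within 2-fold with the block. For most of the rarest RNAs a change of that size could therefore not be excluded at this depth and number of libraries.

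RNAs seen in one group alone were all close to the counting limit. In all, 16231 genes had a count in each of the 6 libraries and 8736 had none in any. A total of 41 genes had at least 1 count in each treated library and 0 in each control library, and 23 had the reverse. With at least 3 counts asked of each library, 1 gene was seen with amyloid-β alone and 2 with control alone, and with at least 10 counts there were 0 of either kind. The highest group means among the 41 and the 23 were 0.130 and 0.185 CPM.

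ENSRNOG00000033299 is the gene that edgeR called with the block. It had 105, 154 and 147 CPM in control replicates 2, 3 and 4, a mean of 135 ± 26.4 (SD, n = 3). With amyloid-β it had 141, 260.0 and 200.4 CPM, a mean of 200.5 ± 59.5 (SD, n = 3). Treated replicate 3 was the highest library and control replicate 2 the lowest, and the groups overlapped, since treated replicate 2 lay below control replicates 3 and 4. Within pairs the level was 1.34, 1.69 and 1.37 times the control, so each pair went up. Fitted with the block, it was higher by a log2 value of 0.55 (SE 0.079, edgeR adjusted p = 0.00604). Without the block the value was 0.57 (SE 0.25, edgeR adjusted p = 1.00), and 0.34 without amyloid-β replicate 3. DESeq2 and voom with the block also called it (adjusted p = 3.42e-06 and 0.00434). The blocked edgeR call was lost without pair 3 (log2 fold change 0.45, edgeR adjusted p = 0.0671). It was kept without pair 2 (0.61, edgeR adjusted p = 1.55e-05) and without pair 4 (0.60, edgeR adjusted p = 6.07e-06). Each fit with a pair left out rests on only 4 libraries.

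In total RNA the same gene went the other way. It had 1054, 519 and 779 CPM in control inputs 2, 3 and 4 and 801, 413 and 645 CPM in the amyloid-β inputs, lower in each pair at 0.760, 0.796 and 0.828 times the control. That difference, a log2 value of -0.35 with an SE of 0.37, did not pass in edgeR (adjusted p = 0.954, or 0.568 with the block). The difference between the immunoprecipitation and input, tested as an interaction, had a log2 value of 0.90 (SE 0.47, edgeR adjusted p = 1.00), and with the block 0.87 (SE 0.18, edgeR adjusted p = 0.700). With the block the interaction had an adjusted p of 0.454 in DESeq2 and 0.0595 in voom. It therefore did not pass in any of the 3 tools. The IgG libraries held 44.7, 42.2 and 45.6 CPM, from only 4, 168 and 81 counts. Each kind of library was scaled on its own, so levels are compared within a kind only.

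ENSRNOG00000029988 is the second gene by the smallest p with the block. It had 19.5, 43.6 and 19.0 CPM in control replicates 2, 3 and 4 and 26.8, 59.2 and 28.5 CPM with amyloid-β. Replicate 3 was the highest in both groups, and the groups overlapped, yet each pair was higher with amyloid-β, at 1.37, 1.36 and 1.5 times the control. With the block its log2 fold change was 0.49 (SE 0.087), which did not pass in edgeR (adjusted p = 0.0582) and passed in DESeq2 (adjusted p = 0.00702) and voom (adjusted p = 0.0246). Without amyloid-β replicate 3 and without the block its log2 fold change was 0.017, and without control replicate 3 it was 0.99, since these libraries stand together above the others. It was 0.29 without control replicate 2 and 0.27 without control replicate 4. In input it had 62.2, 62.5 and 109.9 CPM in control and 69.5, 42.5 and 68.4 CPM with amyloid-β, higher in pair 2 and lower in pairs 3 and 4.

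ENSRNOG00000022466 and ENSRNOG00000015517 were lower with amyloid-β, and neither passed in edgeR. Among lower genes with at least 10 CPM in the higher group and 1 sign in all 3 pairs, they had the smallest blocked p. ENSRNOG00000022466 had 100.5, 102.8 and 112.6 CPM in control and 80.0, 82.1 and 89.1 CPM with amyloid-β, so the groups did not overlap. Its 3 ratios were nearly equal, at 0.796, 0.798 and 0.791. The log2 fold change with the block was -0.33 (SE 0.073, edgeR adjusted p = 0.146). DESeq2 with the block called it (adjusted p = 0.0407) and voom did not (adjusted p = 0.0922). It was also lower with amyloid-β in input pairs 3 and 4, at 0.540 and 0.613 times the control, and 1.03 times the control in pair 2. Its IgG levels were 78.2, 111 and 74.9 CPM, from 7, 442 and 133 counts.

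ENSRNOG00000015517 had 41.0, 30.3 and 25.1 CPM in control and 32.6, 22.9 and 20.8 CPM with amyloid-β. The groups overlapped, because control replicate 4 and treated replicate 2 are the lowest and highest of their groups, while each pair was lower at 0.794, 0.756 and 0.830 times the control. With the block its log2 fold change was -0.33 (SE 0.089, edgeR adjusted p = 0.361), and without the block it ran from -0.56 without amyloid-β replicate 2 to -0.12 without control replicate 2, with -0.21 without amyloid-β replicate 4. Its input values of 21.8, 25.0 and 19.8 CPM in control and 23.4, 19.1 and 23.1 CPM with amyloid-β showed no common direction over the pairs.

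**Figure D3:**
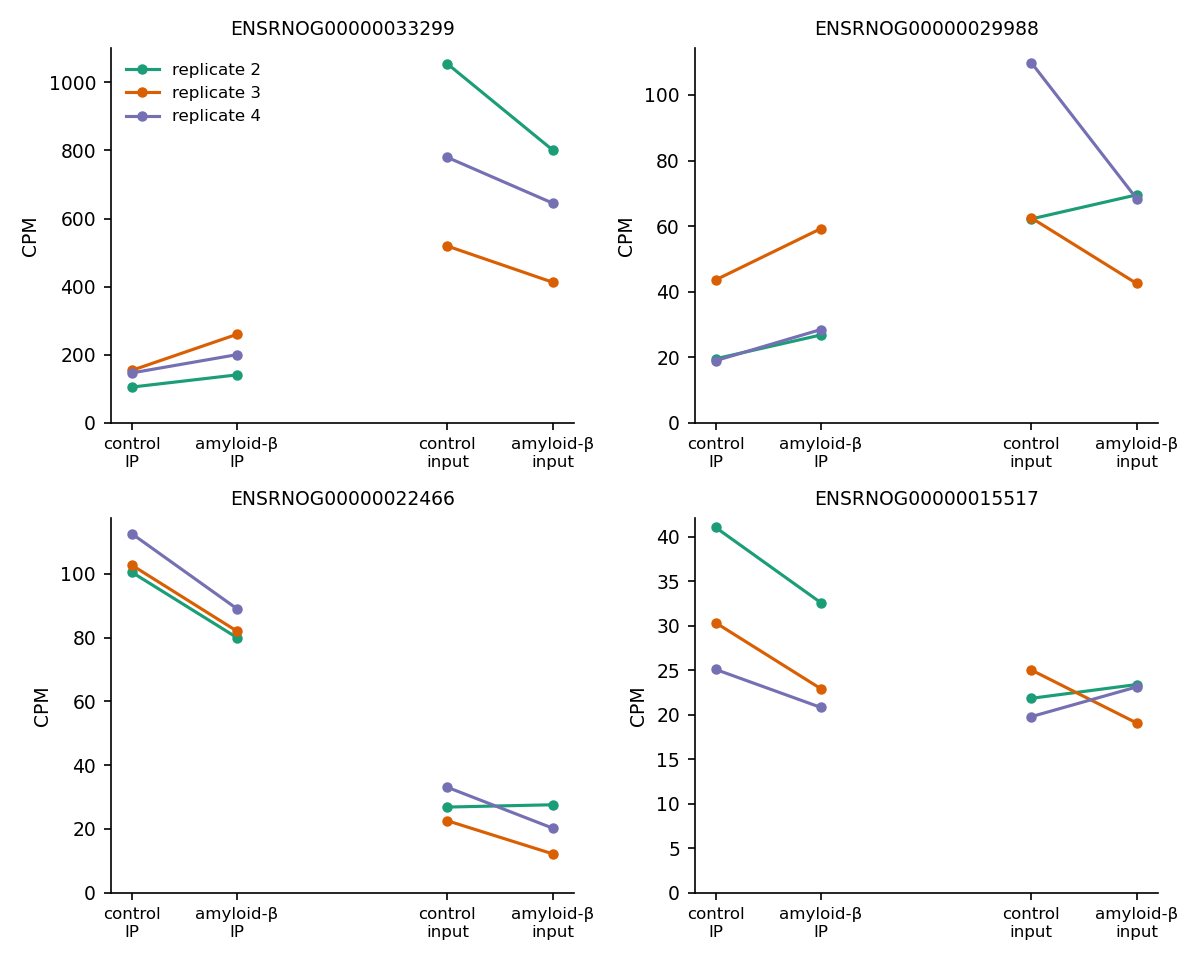
Level in CPM (vertical axis, from 0) of 4 genes in control and amyloid-β libraries of the hnRNP A2 immunoprecipitation and of input, with a line joining the libraries of each replicate number. In the immunoprecipitation all 3 lines rise for the upper genes and fall for the lower genes, while in input ENSRNOG00000033299 falls from 1054, 519 and 779 CPM to 801, 413 and 645 CPM.

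Genes that any of the 3 tools called with the block numbered 20 (0.132%), 19 of them higher with amyloid-β and 1 lower. They were picked for their difference in these libraries, so their fold changes are a description. Their levels ran from 15.4 to 1478 CPM, with a median of 166.6 CPM, and 3 of them were among the 100 most abundant genes. With the block, the 19 higher genes differed from control by 1.23-fold to 1.61-fold. Their median log2 ratio was 0.42 in pair 2, 0.23 in pair 3 and 0.49 in pair 4, and 18 of the 19 were higher in all 3 pairs. The groups did not overlap at 2 of the 19 (10.5%), against 1.37% of all genes tested, which were not picked for their difference. In edgeR without the block their unadjusted p reached from 0.0162 to 0.486.

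The input libraries were not used to pick these 19 genes. Fold changes of the immunoprecipitation and input correlated over 7907 genes (Pearson r of 0.39), so nothing is read from the counts of these 19 genes in input. In input 12 had a higher and 7 a lower fold change with amyloid-β. In all 3 input pairs 11 (57.9%) were higher and 4 (21.1%) were lower, against 18.9% and 16.8% of all genes tested in input. The smallest adjusted p among them in input was 0.954 in edgeR without the block and 0.173 with it, so 0 passed. Their median log2 ratio in input was 0.041 in pair 2, 0.88 in pair 3 and 0.28 in pair 4. In the interaction 7 of the 19 had a larger change in the immunoprecipitation than in input and 12 a smaller one. With the block 7 of the 19 (36.8%) had an unadjusted interaction p under 0.05, against 5.83% of all genes, and the smallest adjusted p was 0.700 (edgeR). The interaction uses the immunoprecipitation libraries that picked these genes, so nothing is read from that share.

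The 10 higher genes with the smallest p with the block, among genes of at least 10 CPM that agreed in sign over the pairs, had log2 fold changes of 0.35 to 0.69 with the block and edgeR adjusted p values up to 0.0963. The 10 lower genes had log2 fold changes of -0.34 to -0.25 and edgeR adjusted p values from 0.146 to 0.565. Of the 10 lower genes, 9 also had a lower value with amyloid-β in input, and of the 10 higher genes 4 had a higher value there. The largest fold changes among genes whose groups did not overlap were log2 values of 0.33 to 0.46 for 5 higher genes and -0.33 to -0.29 for 5 lower genes (edgeR without the block, adjusted p = 1.00 for each). All 5 higher genes were also higher in input, with a median log2 fold change of 0.82. The share of all genes with a matching direction in input was not computed. Over 7907 genes the fold changes of the immunoprecipitation and input correlated at a Pearson r of 0.39, so nothing is read from these counts.

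The treatment ratios of single pairs had little in common across genes. Over the 9134 genes of at least 10 CPM, the log2 ratio of amyloid-β to control had an SD of 0.18 in pair 2, 0.16 in pair 3 and 0.18 in pair 4. The ratios of pairs 2 and 4 correlated with a Pearson r of 0.17 (Spearman rho 0.22). Pairs 2 and 3 gave an r of 0.015 and pairs 3 and 4 an r of -0.059. These are correlations over genes within 1 experiment and carry no p. A ratio of 2-fold or more was found at 1, 3 and 9 genes in pairs 2, 3 and 4, and at 0 genes in all 3 in the same direction.

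**Figure D4:**
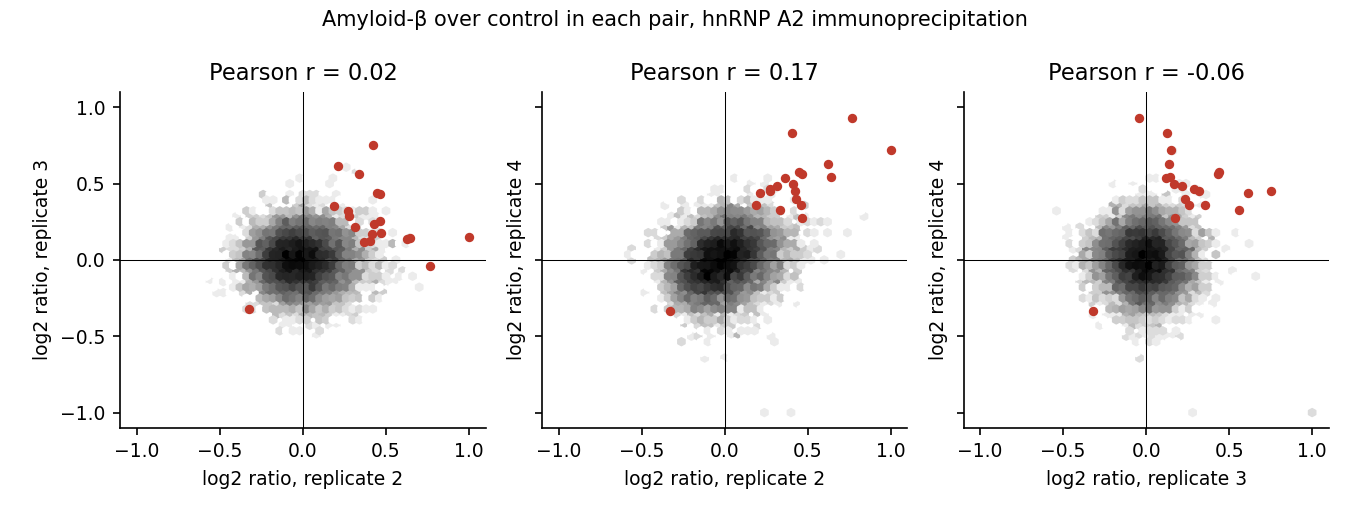
Log2 ratio of amyloid-β to control in the hnRNP A2 immunoprecipitation for 1 pair against another, over 9134 genes with a mean of at least 10 CPM (grey density on a log scale, values beyond 1 or -1 drawn at the edge). The red points are the 20 genes called with the replicate block by any tool, and the clouds show Pearson r of 0.02, 0.17 and -0.06.

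In input the ratios were wider and more alike between 2 of the pairs. Their SD was 0.19 in pair 2, 0.74 in pair 3 and 0.36 in pair 4, and 1295 genes were past 2-fold in pair 3, against 4 in pair 2 and 104 in pair 4. Pairs 3 and 4 correlated at an r of 0.46 in input. The fold changes of the 2 comparisons, which share no library, correlated across 7907 genes at an r of 0.39 (Spearman rho 0.38), with an SD of 0.10 in the immunoprecipitation and 0.38 in input. The same-numbered ratios of the immunoprecipitation and input correlated at 0.15, -0.17 and 0.34 for numbers 2, 3 and 4, and ratios of different numbers at -0.27 to 0.43. The range for the same number lay inside the range for different numbers.

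The interaction asks whether the treatment difference in the immunoprecipitation departs from that in total RNA. None of 15303 genes passed in edgeR (0%), where 125 had an unadjusted p below 0.05. The same was true of DESeq2, where 146 did, and of voom, where 298 did. A block nested in the kind of library left the edgeR count at 0 (0%) and raised the genes below that unadjusted p to 892 (5.83%). For input by itself, the count of 13793 genes was 0 in edgeR (0%) both with the block, where 1625 (11.8%) lay below the unadjusted p, and without it, where 188 did. The blocked voom fit of input passed 6 genes, 1 higher and 5 lower.

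Genes were also grouped by how strongly they were recovered, from a fit of the immunoprecipitation against input over both treatments. That grouping uses the same libraries, but treated and control libraries enter it equally. It put 4128 genes higher than input (27% of those tested) and 4232 lower (27.7%). For the genes higher than input, the median log2 difference between amyloid-β and control was -0.046, and 2721 of 4128 (65.9%) lay below 0. The genes lower than input that were tested here had a median of 0.043, and 1463 of 4135 (35.4%) lay below 0. All tested genes together had a median of -0.0034.

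The shift was small and had 1 direction over the pairs of the immunoprecipitation. For the genes higher than input the median log2 ratio was -0.060, -0.052 and -0.011 in pairs 2, 3 and 4, and for the genes lower than input it was 0.047, 0.060 and 0.0098. In the input libraries the same classes had medians of -0.083 and 0.084, but pair 4 went the other way there, at 0.15 and -0.071. The distance between the medians of the 2 classes, each gene taken over its mean in all 6 inputs, was 2.00, 1.92 and 2.11 log2 units in control replicates 2, 3 and 4 and 1.89, 1.81 and 2.10 with amyloid-β, a mean difference of -0.080 ± 0.055 (SD, n = 3). With each library taken over the input of its own number and treatment, the distance was 1.88, 1.70 and 2.43 in control and 1.92, 2.06 and 2.17 with amyloid-β. The mean difference then turned to 0.044 ± 0.31 (SD, n = 3), higher in pairs 2 and 3 and lower in pair 4. Input pairs 2 and 3 moved the same way, at -0.069 and -0.24 for genes higher than input and 0.068 and 0.26 for genes lower. Whether the shift is particular to the immunoprecipitation libraries was not tested. The differences over matched input spread more widely between pairs (SD 0.31 against 0.055), so nothing is concluded from their lack of a common direction. With a library left out, the median of the genes higher than input was -0.029 without amyloid-β replicate 2, -0.015 without amyloid-β replicate 3, -0.081 without amyloid-β replicate 4 and -0.021 without control replicate 4. That of the genes lower than input was 0.025, 0.00074, 0.092 and 0.0089 in these fits, and 0.068 without control replicate 3.

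**Figure D5:**
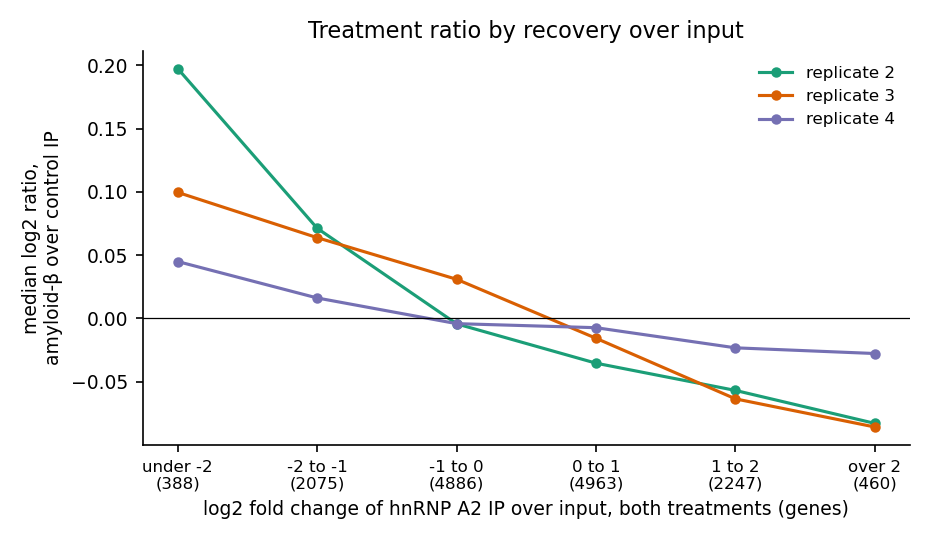
Median log2 ratio of amyloid-β to control in the immunoprecipitation (vertical axis) for genes in 6 ranges of log2 fold change over input (horizontal axis, with the number of genes), 1 line per replicate number. Medians run from 0.20, 0.10 and 0.045 in the lowest range to -0.083, -0.086 and -0.028 in the highest.

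RNAs recovered above both input and IgG numbered 786 of 15092 genes (5.21%), 133 of 15194 without IgG replicate 4, and 1486 (9.85%) with the replicate block. IgG replicate 2 held only 81463 gene counts. Their median level was 49.9 CPM. Amyloid-β left them with a median log2 fold change of -0.029, with 293 above 0 and 493 below. The pairs did not share a direction, with medians of -0.020, -0.11 and 0.035 in pairs 2, 3 and 4. None of the 786 was called by edgeR, DESeq2 or voom with the block, where 0.132% of all genes were, a share too low to set them apart, and 38 (4.83%) had an unadjusted p under 0.05 in edgeR with the block, against 5.87% of all genes. Their 95% confidence interval with the block lay within 1.5-fold either way for 96.3% and within 2-fold for 99.6%. Of the 20 genes called by any tool with the block, 7 (35%) were among the genes higher than input, a class of 27% of genes, and 10 (50%) among those lower, a class of 27.7%, which include ENSRNOG00000033299.

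The summed share of the 10 most abundant RNAs was slightly higher with amyloid-β, while the median log2 fold change of the 100 most abundant was -0.057. The 10 genes with the highest mean level over the 6 libraries made up 5.98%, 7.70% and 7.94% of gene counts in control replicates 2, 3 and 4. With amyloid-β they made up 6.18%, 8.06% and 8.38%, higher in 3 of 3 pairs by 0.332 ± 0.127 percentage points (SD, n = 3; paired exact permutation test, p = 0.25, the smallest that 3 pairs allow; adjusted p = 0.48 over 8 such tests). An unpaired exact permutation test gave p = 0.5, with 0.1 the smallest possible. The 10 genes did not act together, since 5 had a fold change above 0, 2 were higher in all 3 pairs and 0 were lower in all 3. In the inputs the same 10 genes took 37.0%, 19.9% and 26.7% of counts in control and 24.1%, 16.1% and 22.6% with amyloid-β, lower in each pair (paired exact permutation test, p = 0.25, adjusted p = 0.48). The mean difference there was -6.94 percentage points, and -3.96 without pair 2. Of the 100 most abundant genes, 29 had a fold change above 0, 10 were higher and 29 lower in all 3 pairs, against 13.1% and 14.3% of all genes. edgeR called 0 of the 100 with or without the block, and 3 were called with the block by DESeq2 or voom, against 0.132% of all genes. All 20 genes called by any tool with the block had at least 15.4 CPM, and intervals were wider for rare genes. The 2 shares are therefore not compared at like levels, and nothing is read from their difference.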

How the data were processed

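RNA-seq counts of 15 rat libraries were used, of which 6 hnRNP A2 libraries carry the comparison. The deposited files hold raw counts per gene identifier that the authors had not normalized, plus 5 summary rows that name no gene. These rows held 65.5% to 71.7% of records in the hnRNP A2 libraries and were left out. The submitters' processing notes name the tools HTSeq, DESeq2, STAR (version 2.7.1) and R (version 4.2.2), with no roles. The sources used here do not give the build, annotation or strand setting, and overlapping and near-identical genes are therefore uncertain. Per the labels' protocols, a stranded total RNA kit and paired reads were used.

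Counts were tested by quasi-likelihood in edgeR 4.0.16 (R 4.3.3) after TMM scaling and its default expression filter. Calls are at a Benjamini-Hochberg adjusted p of 0.05, and the main model holds no replicate term. A standard error is the log2 fold change divided by the square root of F, without its sign. CPM are scaled within each kind of library, and log2 ratios of pairs use CPM plus 0.5. Scripts were tested on simulated data. Alternatives used DESeq2 1.42.0, limma 3.58.1 with voom, other scalings and filters, the replicate block, and libraries left out. Each voom fit, with or without the block, used estimated quality weights per library. Exact permutation tests were 2-sided.

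Numbers pair the libraries: same-numbered deviations from group means correlated at 0.61 to 0.86 in the immunoprecipitation and 0.50 to 0.67 in input, and different numbers reached 0.29 and 0.058. The members, gene lists and tests were chosen with earlier results of these data known. The grouping by recovery was added after seeing the data. Identifiers had no names, so the gene lists, their summed shares and the cell type markers could not be used, and the rule for named genes became the genes called with or without the block, then the smallest p with the block among genes with at least 10 CPM in the higher group and 1 sign in all 3 pairs, then the largest fold changes, with 2 identifiers per direction.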

Additional observations from a re-analysis of the deposited data

Results flagged for a closer look

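ENSRNOG00000033299 drew attention because all 3 pairs of the hnRNP A2 immunoprecipitation were higher with amyloid-β and all 3 pairs of input were lower, with log2 fold changes of 0.57 and -0.35 (edgeR). The interaction test of this difference did not pass, with an edgeR adjusted p of 1.00 without the replicate block and 0.700 with it. With the block the adjusted p was 0.454 in DESeq2 and 0.0595 in voom. The top 10 genes of the immunoprecipitation by level likewise took a larger part of its counts with amyloid-β in 3 of 3 pairs, by a mean of 0.332 percentage points. In input the difference for these genes was -6.94 percentage points, lower in 3 of 3 pairs, and -3.96 without pair 2. For the top 100 genes the mean differences were 0.138 and -9.02 percentage points, again in 1 direction over all pairs of a kind. Without pair 3 the first of these was 0.080. The differences between the 2 kinds of library in these shares were not tested. Single libraries were not examined for distance from their group, since groups of 3 are too small for it.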

How the results depend on the processing

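Between amyloid-β and control in the immunoprecipitation, the count was 0 in the main setting and under 13 of 21 alternatives without the replicate block, 11 of them in edgeR and the others in DESeq2 and voom. The other 8 have the block. With the block the count was 1 in edgeR, 18 in DESeq2, 14 in voom, 1 with DESeq2-type size factors and 7 with library sizes alone, the last 2 chosen after seeing the data. With a pair left out of the blocked fit it was 17 without pair 2 and ranged from 7 to 37, and with a library left out of the fit without the block it was 0. The interaction gave 0 under all 24 alternatives. In input the count was 0 in the main setting, 6 in voom with the block, and 0 to 189 with libraries or pairs left out. The cause of these moves was not tested. In the treatment comparison the 4 named genes kept their sign under all alternatives. In the interaction, ENSRNOG00000022466 had a log2 value of 0.12 and reversed to -0.0055 in voom, -0.050 with library sizes alone, -0.13 without amyloid-β input replicate 3 and -0.048 without control input replicate 4. Its values with a library left out ran from -0.13 to 0.43. Over the named genes in both comparisons, 163 of 180 values kept their sign and side of the threshold, 13 came past it and 4 reversed. The median of the genes above input and IgG turned to 0.014 without amyloid-β replicate 3 and 0.017 with the block and without pair 3. The distance between genes higher and lower than input, -0.080 between treatments, reversed to 0.044 over matched inputs, an alternative added after seeing the data. Scaling by library sizes alone moved the median log2 value of all genes from -0.019 to -0.15 in the interaction and from -0.014 to 0.15 in input. Depth limits genes below 1 CPM.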
